A study of Arabidopsis thaliana with 40 samples.

Results

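The line labelled nobiro6, a suppressor mutant, was compared with the line labelled bz1728 in the root and in the shoot of Arabidopsis thaliana seedlings, and the question was where the change between the lines differed between the organs. For each gene, the log2 change from bz1728 to nobiro6 in shoot was subtracted from the same change in root. A positive difference means that the change was more positive in root, and a negative one that it was more negative in root. The lines and organs compared made up 16 of the 40 libraries of the series, 4 for each line and organ. Scaling, the minimum count and the spread were taken from all 40, which also cover the wild type and the lines nbr6-t1 and taf12-t1. Of the 27655 listed transcripts, 20015 held enough counts to be tested. Groups were taken from the labels, and a minimum count was the only condition on a gene.

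The line bz1728 is a double mutant made from the T-DNA lines SALK_004048 and SALK_132285 and named for BZIP17 and BZIP28. The line nobiro6 is described by the labels as bzip1728 with a further suppressor change, so by its label it shares the double mutant background. Its BZIP28 counts, given with the mutated genes, go against that label for BZIP28, and the line names are used here as the labels give them. Seedlings were 12 d old at harvest by the protocol and 13 d after sowing by the stage label, and had grown on agar at 22 °C with 16 h of light. The wild type Col-0 (wt) and the T-DNA line nbr6-t1 (GABI_172C03), grown in the same way, gave a second root minus shoot difference that shared no library with the first.

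In plants, misfolded proteins in the endoplasmic reticulum (ER) trigger the unfolded protein response (UPR). The membrane-anchored factors bZIP17 and bZIP28 move to the Golgi, are cut there and enter the nucleus, while the kinase and nuclease IRE1 splices the messenger of bZIP60. Together these factors raise chaperones, folding enzymes and parts of the secretory pathway, and they serve growth as well as stress, the root being strongly shortened when bZIP17 and bZIP28 are both lost. TAF12B encodes a TBP-associated factor, a subunit of the general transcription factor TFIID.

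Library totals ran from 2.66 to 7.27 M counts over the 16 libraries, and levels are given as counts per 1000000 (CPM) after scaling over all 40 libraries. From the library totals, before scaling, a single count stood for 0.138 to 0.375 CPM. Scaling moved these values, for example from 0.375 to 0.291 CPM in replicate 4 of nobiro6 root. Within a group, a library's mean correlation with the other 3 ran from 0.978 to 0.989 (across genes, log2 CPM). Replicates 1 and 3 of nobiro6 shoot were the lowest, each at 0.978. The labels call the libraries repeats without naming separate cultures, so p-values measure the spread between these libraries, which may be technical. Summed over 8 root markers, the shoot libraries of both lines held 0 to 1.08 CPM and the root libraries 197 to 267 CPM. Summed over 7 shoot markers (without PDF1, described further on), the root libraries held 4.45 to 7.78 CPM and the shoot libraries 175 to 251 CPM. In whole organs, fewer cells of a type and less RNA per cell cannot be told apart.

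The change from bz1728 to nobiro6 differed between root and shoot for 3170 of the 20015 genes tested, which is 15.8% (edgeR quasi-likelihood test, Benjamini-Hochberg adjusted p under 0.05). The difference was positive for 1749 genes (8.74% of those tested) and negative for 1421 (7.1%), while 5583 passed an unadjusted p of 0.05. In 1278 of the 3170 the organs were at least 2-fold unequal, 657 positive and 621 negative. The median over all genes tested was 0.05 on the log2 scale, and the split between positive and negative depended on the scaling. With only the 16 libraries in the fit 1125 were positive and 1511 negative, and with DESeq2 1449 and 1792.

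Most of these genes changed in 1 organ by its own test. Changes called in root alone accounted for 1317 of the 3170 (41.5%), 692 of them rising and 625 falling. Another 1075 (33.9%) were called in shoot alone, where 422 rose and 653 fell. In 381 genes (12.0%) both changes were called and ran in opposite directions, 195 rising in root and falling in shoot, and 186 the reverse. A further 193 changed the same way in both organs by unequal amounts, 104 more in root and 89 more in shoot, and 204 passed in neither organ alone. Being called in 1 organ and not the other was not enough for a difference. Of 3979 genes called in root and not in shoot, 1317 differed between the organs, and of 2714 called in shoot and not in root, 1075 did. The simple changes behind these counts were called for 27.7% of genes in root, 12.7% rising and 15.1% falling, and for 21.4% in shoot, 8.39% rising and 13.0% falling.

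**Figure D1:**
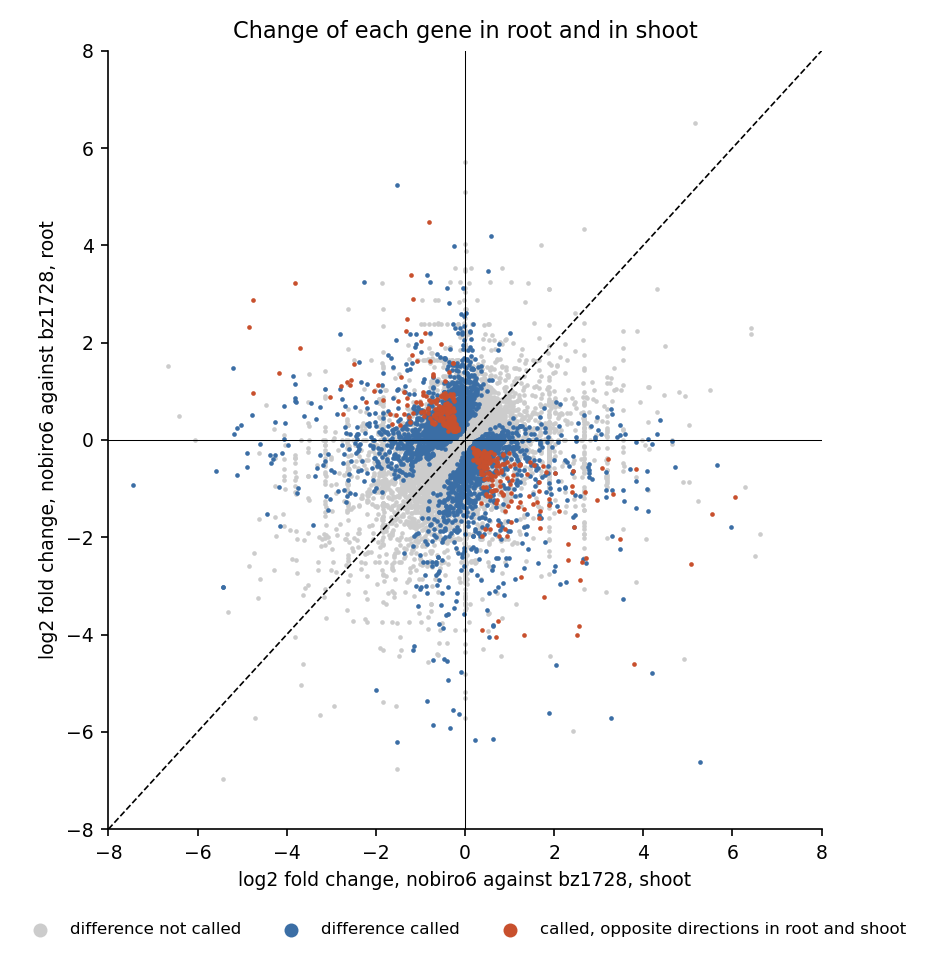
Each point is 1 of 20012 genes, placed by its log2 fold change from bz1728 to nobiro6 in shoot (horizontal) and in root (vertical), with 3 genes outside the plotted range of 8 left off. Genes whose changes were equal lie on the dashed line, the 3170 with a called difference are blue or orange, and the 381 that changed in opposite directions (orange) lie in the upper left and lower right of the plot.

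The difference was rarely a matter of a gene measured in 1 organ. A mean of at least 1 CPM in both organs was reached by 85.2% of the genes tested, and these held 3037 of the 3170. The differences are ratios of ratios. In 224 of the 3170 (7.07%), the organ with the larger log2 change had the smaller change in CPM in that direction, so that the sign was the other way on the linear scale. Opposite changes give the same sign on both scales by arithmetic, so no such gene could be among these.

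The mutated genes themselves came first. BZIP28 (AT3G10800) held 0 counts in all 8 bz1728 libraries, but stood at 12.4, 13.2, 12.7 and 7.27 CPM in nobiro6 root and 29.5, 30.8, 31.2 and 38.9 in nobiro6 shoot, against a wt mean of 57.8 and 43.4. The root libraries of nobiro6 were thus at least 110-fold higher than those of bz1728, and the shoot libraries at least 180-fold higher, taking 3 counts over the group as the floor. For BZIP28, these counts go against the label by which nobiro6 carries the bzip1728 mutations. Whether the lines share that background was not tested. With bz1728 at 0 in both organs no difference was read from the fit, and every result here is a comparison in which the BZIP28 transcript differs as well, so that its part and that of the suppressor change cannot be told apart. BZIP17 (AT2G40950) stood at 4.47 ± 0.947 and 3.97 ± 1.19 CPM in root and at 3.42 ± 0.907 and 2.96 ± 1.29 in shoot (bz1728 and nobiro6, mean ± SD, n = 4), with a difference of -0.12 ± 0.33, adjusted p 0.88. The wt mean of BZIP17 was 41.7 CPM in root and 36.5 CPM in shoot, so both lines stood far below wt in both organs.

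The genes next to BZIP28 behaved like it. AT3G10810 held 0 counts in bz1728 root, 1 library of bz1728 shoot held 0.175 CPM, and the nobiro6 means were 38.2 ± 3.85 CPM (root) and 38.6 ± 3.83 CPM (shoot). AT3G10815 was at 0 in all bz1728 libraries and at 7.98, 6.16, 8.39 and 6.98 CPM in nobiro6 root and 4.5, 0.832, 0.756 and 0.54 in nobiro6 shoot. BGAL9 (AT2G32810), a beta-galactosidase gene, was nearly lost in both organs of nobiro6. It fell from 39.7 ± 4.94 to 0.284 ± 0.352 CPM in root and from 56.8 ± 4.79 to 1.31 ± 0.474 in shoot, and the difference of -1.54 ± 0.56 was not called (adjusted p 0.055).

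TAF12B (AT1G17440) fell in both organs, and fell further in shoot. Its libraries stood at 33, 36, 37.2 and 33.2 CPM in bz1728 root, 22.5, 21.8, 18.5 and 23 in nobiro6 root, 49.7, 59.7, 59.1 and 55.4 in bz1728 shoot and 24.6, 28.3, 22.2 and 19.2 in nobiro6 shoot. The lines did not overlap in either organ, which held for 27.6% of all genes in root and 19.1% in shoot. On the log2 scale it fell by 0.71 ± 0.11 (root) and 1.25 ± 0.11 (shoot), a difference of 0.55 ± 0.15, adjusted p 0.0099. It was the only called gene among 24 tested subunits of TFIID and SAGA (4.17%, below the 15.8% of all genes). Their median difference was 0.12, and a second one was called without nobiro6 root 4 or nobiro6 shoot 2. The TAF12B paralog TAF12 (AT3G10070) stood at 8.14 ± 1.38 and 7.47 ± 2.15 CPM in root and 13.4 ± 1.25 and 11.9 ± 1.04 in shoot, with a difference of 0.06 ± 0.24, adjusted p 0.94.

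Genes of the stress-type UPR with a called difference all had the more negative change in root. Of 12 members tested, 9 fell in root and 4 in shoot (15.1% and 13.0% of all genes did), and 5 had a called negative difference and none a positive one, against 7.1% and 8.74% of all genes, and the median difference was -0.75. SEC31A (AT1G18830), which helps coat the vesicles that bud from the ER, was measured at 647, 732, 546 and 622 CPM in bz1728 root, 176, 179.8, 143 and 138 in nobiro6 root, 17.35, 14.5, 19.6 and 15.7 in bz1728 shoot and 15.1, 11.7, 10.3 and 5.4 in nobiro6 shoot. All 4 nobiro6 root libraries lay far below all bz1728 root libraries, whereas the shoot libraries overlapped. It fell by 2.0 ± 0.14 in root and by 0.64 ± 0.24 in shoot (adjusted p 3.3e-13 and 0.0495), and the difference was -1.36 ± 0.28, adjusted p 0.00071.

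BZIP60 (AT1G42990), the factor whose messenger IRE1 splices, stood at 116, 122, 109.6 and 126 CPM in bz1728 root, 79.6, 73.2, 73.7 and 72.2 in nobiro6 root, 66.1, 65.1, 62.9 and 58.8 in bz1728 shoot and 68, 72.4, 63.5 and 58.8 in nobiro6 shoot. It fell by 0.66 ± 0.09 in root and was not called in shoot (0.06 ± 0.10, adjusted p 0.74), a difference of -0.72 ± 0.13, adjusted p 8.2e-05. The membrane-bound factor NAC062 (AT3G49530) stood at 80.3 ± 8.82 and 44.8 ± 3.86 CPM in root and 44.3 ± 15.5 and 46.3 ± 7.56 in shoot, where replicate 1 of bz1728 held 67.1 CPM, and its difference was -0.93 ± 0.24, adjusted p 0.0062. SARA1A (AT1G09180), a small GTPase of the SAR1 family that assembles the ER export coat, fell in both organs, by 1.95 ± 0.27 in root and 0.68 ± 0.23 in shoot (-1.27 ± 0.36, adjusted p 0.011). UTR1 (AT2G02810), an ER nucleotide sugar transporter, fell from 18.4 ± 2.51 to 8.71 ± 1.23 CPM in root and stood at 5.49 ± 0.873 and 5.48 ± 1.19 in shoot (-1.04 ± 0.32, adjusted p 0.021). The UTR1 call was lost without replicate 3 or 4 of nobiro6 shoot (adjusted p up to 0.0567).

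The other 7 members were not called in the difference. NAC103 (AT5G64060), a NAC factor downstream of bZIP60, fell in both organs, by 2.36 ± 0.23 in root and 1.59 ± 0.28 in shoot, and the difference of -0.77 ± 0.38 had an adjusted p of 0.17. BIP3 (AT1G09080), the stress-induced BiP chaperone, stood at 17.3, 17.1, 11.2 and 8.92 CPM in bz1728 root and 1.99, 1.05, 1.31 and 1.45 in nobiro6 root. In shoot both lines held at most 1.23 CPM, and the difference of -3.64 ± 1.95 (adjusted p 0.23) rests on these few counts. It was called with only the 16 libraries in the fit and with root and shoot of a replicate number paired (adjusted p as low as 0.017). NAC089 (AT5G22290) fell by 0.74 ± 0.13 and 0.55 ± 0.12, and the chaperone cofactor BAG7 (AT5G62390) by 0.34 ± 0.07 in root. Their differences were -0.19 and -0.18. The sensors IRE1A and IRE1B and the tunicamycin-induced TIN1 had differences of -0.27 ± 0.16, 0.01 ± 0.16 and 0.17 ± 0.45.

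**Figure D2:**
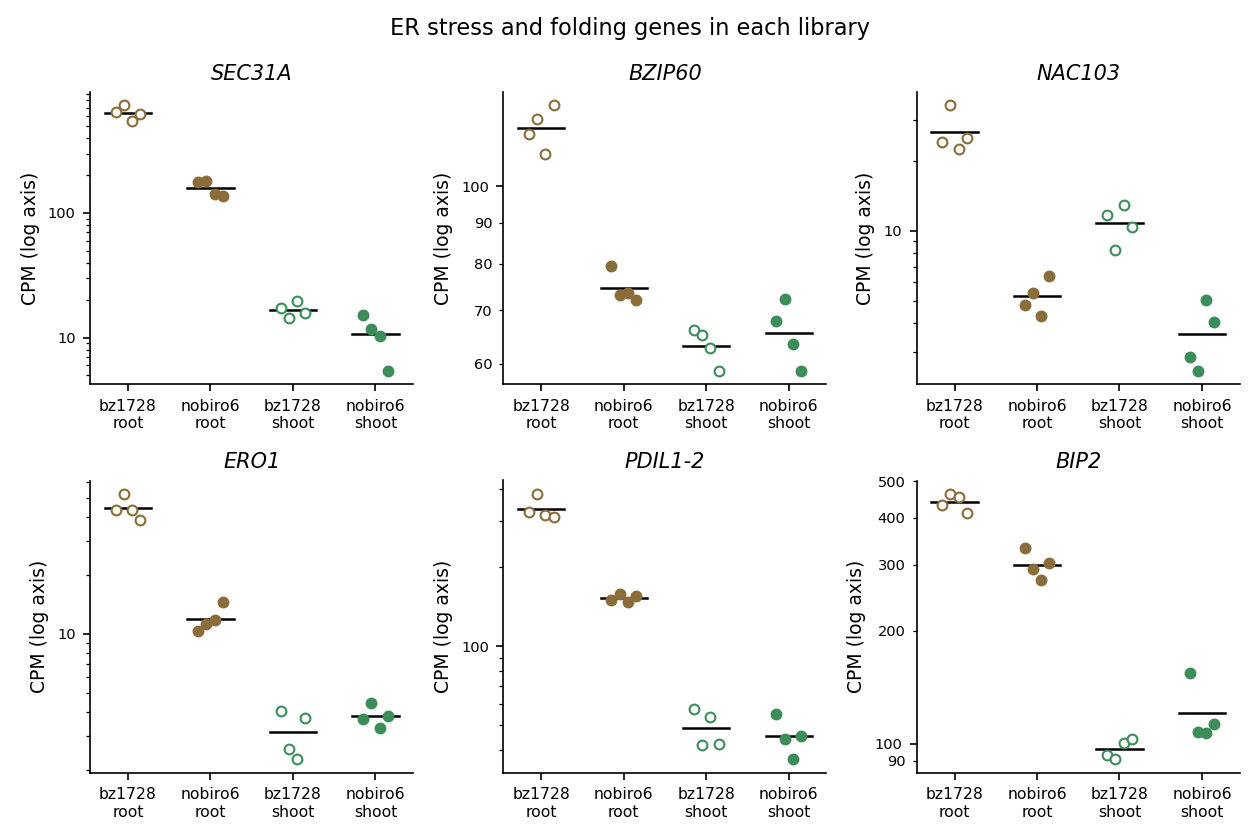
CPM of 6 ER genes in each library (log axis), with bz1728 as open and nobiro6 as filled circles, root in brown and shoot in green, and a bar at the mean of 4 libraries. SEC31A, BZIP60, ERO1 and PDIL1-2 separate the lines in root and overlap in shoot, NAC103 separates them in both organs, and BIP2 is lower in nobiro6 root and higher in nobiro6 shoot.

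The called differences among genes for the folding machinery of the ER had the same direction. Of 24 chaperone and folding genes tested, 9 had a called negative difference and none a positive one, against 7.1% and 8.74% of all genes. The median difference was -0.29 against 0.05 over all genes. ERO1 (AT1G72280), the oxidase that recharges disulfide isomerases, had the most negative of the 9. Its libraries stood at 43.3, 52.4, 43.4 and 38.4 CPM in bz1728 root, 10.4, 11.3, 11.7 and 14.5 in nobiro6 root, 4, 2.58, 2.27 and 3.69 in bz1728 shoot and 3.68, 4.44, 3.28 and 3.78 in nobiro6 shoot. It fell by 1.91 ± 0.16 in root with no overlap, while in shoot the change was 0.32 ± 0.30 (adjusted p 0.5), a difference of -2.23 ± 0.34, adjusted p 8.3e-06.

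The disulfide isomerases PDIL1-2 (AT1G77510) and PDIL2-3 (AT2G32920) followed the same course. PDIL1-2 stood at 327, 383, 319 and 313 CPM in bz1728 root, 149.8, 158, 147 and 156 in nobiro6 root, 57.4, 41.9, 53.5 and 42.3 in bz1728 shoot and 54.9, 44.1, 36.8 and 45.3 in nobiro6 shoot. PDIL2-3 fell from 259.8 ± 25.1 to 142 ± 2.87 CPM in root and stood at 84.6 ± 3.84 and 84.2 ± 9 in shoot. Neither was called in shoot, and the differences were -1.04 ± 0.19, adjusted p 0.00024, and -0.87 ± 0.12, adjusted p 9.8e-07.

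The BiP chaperone BIP2 (AT5G42020) moved in opposite directions. It stood at 433, 463, 455 and 413 CPM in bz1728 root, 333, 292, 272 and 303 in nobiro6 root, 93.4, 90.7, 101 and 103 in bz1728 shoot and 154, 107, 107 and 113 in nobiro6 shoot. It fell by 0.56 ± 0.11 in root and rose by 0.32 ± 0.12 in shoot (adjusted p 0.047), where replicate 1 of nobiro6 lay above the other 3. The difference was -0.87 ± 0.16, adjusted p 0.00011. The other called members were BIP1 (-0.49), the calnexin CNX1 (-0.44), the J-domain cochaperones ERDJ3A (-0.72) and P58IPK (-0.54), and AT5G07340 (-0.37). ERDJ3A and AT5G07340 fell in both organs, and P58IPK was called in neither organ alone. BIP1 and BIP2 are close copies, and the counting could split reads between them.

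Some promoters of called ER genes, picked for holding a motif, are shown because bZIP factors of the UPR are known to bind short motifs. In the 250 bases before the start of transcription (TAIR10.1, RefSeq), ERSE-I (CCAAT and CACG with 10 bases between) occurred in 1 of 12 stress-type UPR promoters and 6 of 24 folding promoters, against 0.839% of 19901 promoters of tested genes. The UPRE core (TGACGTG) occurred in 2 and 6 of them, against 3.28%. ERSE-II (ATTGG and CCACG with 1 base between) occurred in none of these, against 0.0754%. The G-box (CACGTG), which can share bases with the other motifs, occurred in 5 of 12 and 6 of 24, against 7.31%, and in 4 of the 5 stress-type genes called in the difference. Of those 5, ERSE-I lay in 0 and the UPRE core in 1. BZIP60, SARA1A, NAC062 and UTR1 held no match to ERSE-I, ERSE-II or the UPRE core. Both strands were searched. In the promoters shown, the UPRE core lay in SEC31A (chr1:6488983-6489232, plus strand), and ERSE-I in PDIL1-2 (chr1:29126398-29126647, plus strand) and, on the other strand and in 2 places, in P58IPK (chr5:749851-750100, plus strand). The sequences run 5′ to 3′ towards the start, and capitals mark the fixed letters of the ERSE-I or the UPRE core.
SEC31A: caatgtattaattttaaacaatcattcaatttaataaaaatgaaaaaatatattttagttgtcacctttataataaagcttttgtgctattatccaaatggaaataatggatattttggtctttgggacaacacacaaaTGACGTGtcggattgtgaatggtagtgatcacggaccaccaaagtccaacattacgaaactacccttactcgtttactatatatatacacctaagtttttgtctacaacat
PDIL1-2: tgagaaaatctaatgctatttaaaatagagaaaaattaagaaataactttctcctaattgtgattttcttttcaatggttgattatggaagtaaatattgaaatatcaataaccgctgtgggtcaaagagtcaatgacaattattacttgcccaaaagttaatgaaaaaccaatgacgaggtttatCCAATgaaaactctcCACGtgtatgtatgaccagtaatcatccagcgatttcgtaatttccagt
P58IPK: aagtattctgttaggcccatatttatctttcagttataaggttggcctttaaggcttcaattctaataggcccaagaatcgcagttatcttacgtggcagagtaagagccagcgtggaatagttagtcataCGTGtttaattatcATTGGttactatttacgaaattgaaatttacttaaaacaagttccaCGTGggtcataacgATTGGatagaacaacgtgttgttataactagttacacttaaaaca

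Motif content did not follow the calls one for one in these lists. The ERSE-I lay in 2 of the 9 called and in 4 of the 15 uncalled folding promoters, and the UPRE core in 1 and 5. In the ER-associated degradation list, HRD3A (AT1G18260), a partner of the HRD1 ligase, had a negative difference of -0.32 ± 0.11, adjusted p 0.034, and the mannosidase gene MNS5 (AT1G27520) a positive one of 0.81 ± 0.13, adjusted p 2.3e-05. The other 11 of 13 were not called, and the called share of 15.4% was near the 15.8% of all genes. HRD3A lost its call without any of 6 libraries in turn (bz1728 root 1, bz1728 shoot 2 and 4, nobiro6 root 3, nobiro6 shoot 2 and 4, adjusted p up to 0.108).

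Jasmonate genes, which serve wound and defence signalling, had the lowest median difference of the 25 functional lists. Of 24 tested, 10 had a called negative difference and 2 a positive one (median -1.29), against 7.1% and 8.74% of all genes. Without replicate 1 of nobiro6 shoot the count of negative differences was 6. JAZ6 (AT1G72450), a JAZ repressor that jasmonate itself induces, stood at 19.4, 25, 21.7 and 19.2 CPM in bz1728 root, 8.18, 6.76, 8.39 and 10.5 in nobiro6 root, 31, 26.9, 32 and 38.1 in bz1728 shoot and 90.7, 74.9, 48.6 and 75.8 in nobiro6 shoot. The lines did not overlap in either organ, and nobiro6 was the lower in root and the higher in shoot. It fell by 1.38 ± 0.27 in root and rose by 1.18 ± 0.21 in shoot, a difference of -2.56 ± 0.34, adjusted p 2.7e-06.

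JAZ2 (AT1G74950) also ran in opposite directions (-1.04 ± 0.19 in root, 0.66 ± 0.21 in shoot, difference -1.69 ± 0.28, adjusted p 5.9e-05). JAZ10 (AT5G13220) stood at 27.3, 44.7, 15.8 and 31.1 CPM in bz1728 root and 1.79, 2.85, 3.36 and 4.36 in nobiro6 root, and at 2.82 ± 1.17 and 2.36 ± 0.611 CPM in shoot (-3.1 ± 0.54, adjusted p 6.6e-05). LOX3 (AT1G17420), a lipoxygenase of jasmonate synthesis, fell in root from 1.97, 11.1, 2.07 and 5.03 to 0.199, 0.15, 0.746 and 0.291 CPM and stood at 21.4 ± 3.79 and 15.1 ± 2.18 in shoot (-3.36 ± 0.77, adjusted p 0.0022, with the other sign in CPM). JAZ1, JAZ5 and the synthesis gene AOS were called in root alone, with differences of -1.89, -1.94 and -0.96. The 2 positive differences belonged to VSP2, a storage and defence protein that fell in shoot (1.67), and JAZ12, which also fell in shoot (0.45), and 1 of these calls was lost without any of 10 libraries in turn.

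TAT3 (AT2G24850), a tyrosine aminotransferase induced by jasmonate, had the most negative difference of the named genes. It stood at 169, 389, 84.9 and 225 CPM in bz1728 root, 0.997, 13.2, 6.53 and 10.2 in nobiro6 root, 1, 0, 0.349 and 0 in bz1728 shoot and 12.9, 3.33, 5.04 and 0.54 in nobiro6 shoot. The root libraries did not overlap, but the lines overlapped in shoot and the shoot change was not called. Its difference of -8.98 ± 2.45, adjusted p 0.011, became -8.02 with an adjusted p of 0.13 without replicate 1 of nobiro6 shoot. It was not called by limma-voom (adjusted p up to 0.189).

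Ethylene genes gave 6 negative differences and no positive one among 19 tested (median -0.43), against 7.1% and 8.74% of all genes. ARGOS (AT3G59900), a small membrane protein that dampens ethylene response, stood at 15.1 ± 5.11 and 4.65 ± 1.76 CPM in root and at 0.863 ± 0.448 and 2.64 ± 0.987 in shoot. Its shoot rise had an adjusted p of 0.041, and the difference was -3.27 ± 0.67, adjusted p 0.00053. HEL (AT3G04720), a hevein-like defence protein, fell by 1.28 ± 0.36 in root and rose by 1.23 ± 0.42 in shoot (-2.52 ± 0.55, adjusted p 0.0017). ACO4 and the receptor ERS1 were called in root alone (-0.57 and -0.57), and EBF2, which targets the ethylene factor EIN3 for degradation, in shoot alone (-1.0). ACS7 (AT4G26200), an ACC synthase of ethylene synthesis, stood at 3.48, 6.34, 4.3 and 6.86 CPM in bz1728 root and 0.199, 0.901, 0.186 and 0.873 in nobiro6 root, and at 3.34, 0.517, 2.45 and 0.246 in bz1728 shoot and 6.96, 4.16, 0.756 and 10.5 in nobiro6 shoot. It was lower in every nobiro6 root library and overlapped in shoot, with a fall of 3.22 ± 0.60 and a rise of 1.78 ± 0.53 (-5.0 ± 0.80, adjusted p 2.2e-05).

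In the list of salicylic acid and immunity, 18 of 20 tested genes had a negative difference (45.3% of all genes did), but 2 were called. A negative difference was called for 7.1% of all genes. PAD3 (AT3G26830), the last enzyme of camalexin synthesis, stood at 0.334, 0.517, 1.57 and 0 CPM in bz1728 shoot and 31.1, 1.66, 0.756 and 0.81 in nobiro6 shoot, and GRX480 (AT1G28480), a glutaredoxin, at 0.334, 0.258, 0.349 and 0 and 4.5, 0.555, 0 and 0. In both, replicate 1 was the highest library of nobiro6 shoot. PAD3 rose in shoot alone and GRX480 fell in root alone. Without that library the differences were -1.15 for both PAD3 (adjusted p 0.731) and GRX480 (adjusted p 0.802), against -4.28 ± 1.38 and -4.01 ± 1.27. PAD3 also lost its call without bz1728 root 1, bz1728 shoot 1, 2 or 4, or nobiro6 root 1, and GRX480 without bz1728 shoot 4. By limma-voom neither was called.

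AZI1 (AT4G12470) and EARLI1 (AT4G12480), neighbouring genes for lipid-transfer-like proteins of which AZI1 acts in systemic defence priming, fell in root and rose in shoot. AZI1 stood at 28.6, 22.1, 26.7 and 32.2 CPM in bz1728 root, 5.98, 6.01, 0.932 and 6.4 in nobiro6 root, 14.7, 5.69, 21.3 and 12.8 in bz1728 shoot and 199, 38.3, 8.57 and 98.2 in nobiro6 shoot. Its shoot libraries overlapped, since replicate 3 of nobiro6 held 8.57 CPM, and the difference was -5.14 ± 0.95, adjusted p 0.00028. EARLI1 ranged from 0.756 to 179.9 CPM in nobiro6 shoot (-5.14 ± 1.09, adjusted p 0.0012), and its call was lost by limma-voom with and without a weight for each tissue (adjusted p up to 0.0611). The pair are close copies, so reads may be shared. GSTU4 (AT2G29460), a tau glutathione transferase, fell by 2.03 ± 0.49 in root. Its shoot rise rested on replicate 1 of nobiro6, at 25.6 CPM against 0.832 to 2.02 in the other 3, and without it the difference went from -5.51 ± 1.13 to -2.90 (adjusted p 0.173).

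PHI-1 (AT1G35140), an EXORDIUM-like gene, showed the opposite changes with no overlap in either organ. It stood at 8.13, 10.4, 7.57 and 13 CPM in bz1728 root, 2.19, 1.95, 1.68 and 3.2 in nobiro6 root, 20.4, 7.24, 14.5 and 7.63 in bz1728 shoot and 55.3, 64.4, 51.4 and 72.3 in nobiro6 shoot, and the difference was -4.45 ± 0.54, adjusted p 6.3e-07. DREB26 (AT1G21910), a DREB factor, fell by 1.42 ± 0.40 and rose by 1.32 ± 0.39 (-2.74 ± 0.55, adjusted p 0.00071). GLR2.7 (AT2G29120), a glutamate receptor-like channel, held 4.65, 5.89, 5.34 and 7.32 CPM in bz1728 root and 0.199, 0, 0.186 and 0 in nobiro6 root. In shoot it stood at 14.9 ± 3.05 and 12.4 ± 2.11 CPM, and the difference was -5.29 ± 0.61, adjusted p 3.5e-08. BCA3 (AT1G23730), a beta carbonic anhydrase, fell in both organs, by 6.22 ± 0.38 and 1.53 ± 0.38 (-4.69 ± 0.65, adjusted p 1.5e-06). PMAT2 (AT3G29670), a malonyltransferase, fell in root alone (-4.14 ± 0.50, adjusted p 9.3e-08), and AST91 (AT1G23090), a sulfate transporter, fell by 3.92 ± 0.28 in root and rose by 0.39 ± 0.11 in shoot (-4.31 ± 0.31, adjusted p 4.3e-14).

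**Figure D3:**
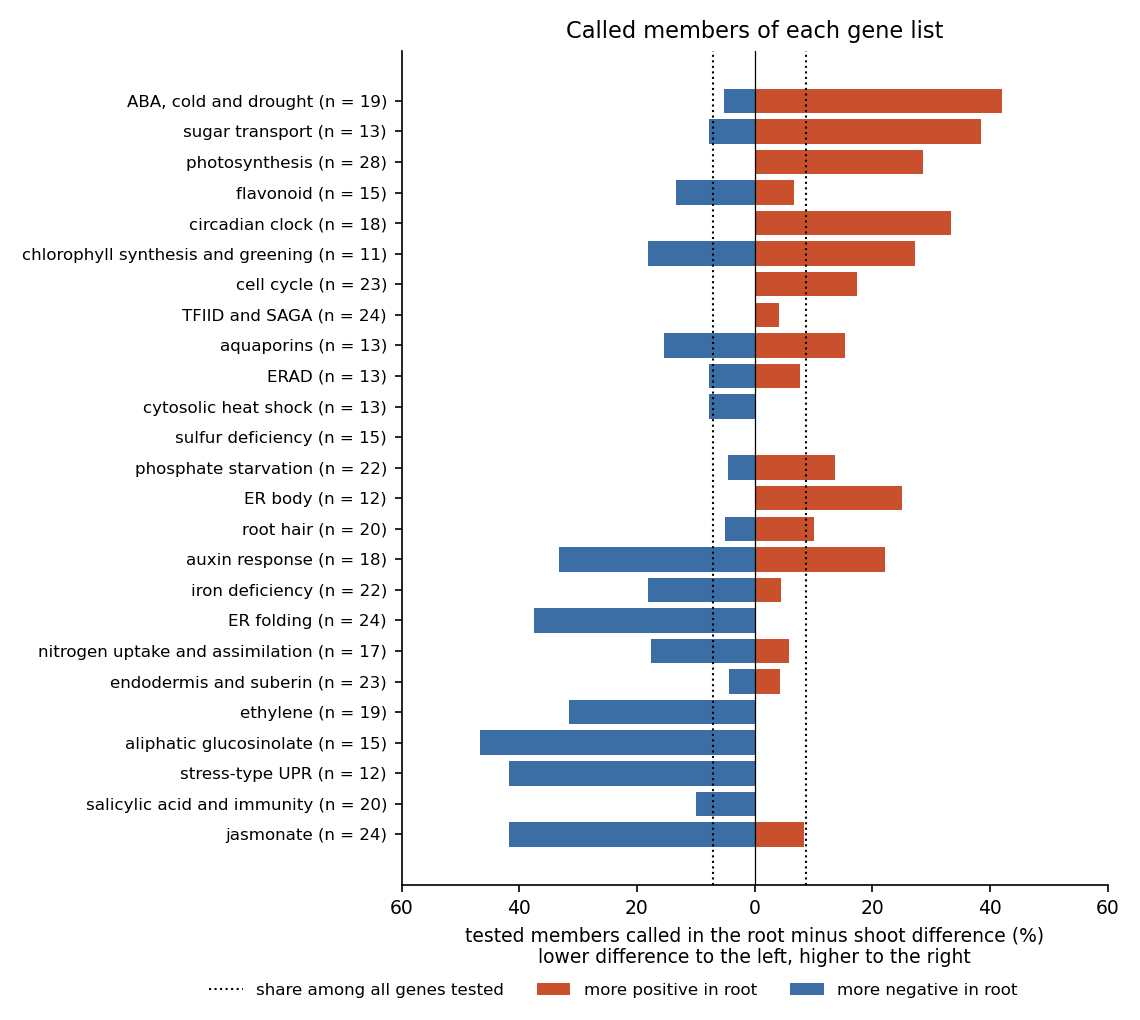
Share of tested members with a called difference in each of 25 gene lists (horizontal axis, percent), negative to the left and positive to the right, with lists ordered by their median difference. Dotted lines mark the shares among all genes tested, 7.1% and 8.74%. Jasmonate, stress-type UPR, glucosinolate, ethylene and ER folding extend to the left, and the abscisic acid list, sugar transport, the clock and photosynthesis to the right.

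In several lists no member was called in one direction. At an unadjusted p of 0.05 there was also no positive difference among the stress-type UPR, ER folding, salicylic acid and glucosinolate genes, and no negative one among photosynthesis, cell cycle and clock genes. There was 1 positive difference among the ethylene genes and 1 negative one among the ER body genes. DESeq2 called 0 of these except the negative ER body difference.

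Of 13 sugar transport genes tested, 5 had a called positive difference and 1 a negative one (median 0.55), against 8.74% and 7.1% of all genes. The positive ones were SUC2 and 4 of the 9 members of the SWEET family of sugar carriers. SWEET11 (AT3G48740), which passes sucrose to the phloem loading step in leaves, stood at 0.581, 0.111, 2.58 and 0.457 CPM in bz1728 root, 8.18, 32.3, 18.8 and 14.3 in nobiro6 root, 396, 447, 475 and 391 in bz1728 shoot and 206, 257, 251 and 271 in nobiro6 shoot. The lines did not overlap in either organ, with nobiro6 the higher in root and the lower in shoot. It rose by 4.49 ± 0.46 in root and fell by 0.80 ± 0.19 in shoot, a difference of 5.29 ± 0.51, adjusted p 1.2e-08. Its partner SWEET12 (AT5G23660) went from 1.83 ± 1.14 to 7.87 ± 3.4 CPM in root and from 54.4 ± 9.57 to 29.4 ± 3.93 in shoot (3.09 ± 0.40, adjusted p 1.3e-06). SWEET13 (AT5G50800) rose by 1.1 ± 0.33 and fell by 2.78 ± 0.28 (3.88 ± 0.44, adjusted p 1.7e-08). SUC2, the phloem loader of sucrose, fell in shoot alone (0.80), and SWEET2, a sugar carrier of the vacuole, rose in root alone (0.77). With only the 16 libraries in the fit, 3 members were positive.

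The negative member was STP13 (AT5G26340), a hexose importer. It fell in root from 44.1, 51.5, 37.3 and 46.9 to 4.19, 7.36, 14.4 and 11.6 CPM. In shoot, nobiro6 held 21.3, 4.72, 3.28 and 1.89 CPM against 5.85 ± 1.6 in bz1728, and without replicate 1 the difference went from -2.76 ± 0.64 to -1.41 (adjusted p 0.149).

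Called differences among genes of abscisic acid (ABA), cold and drought were positive with 1 exception. Of 19 tested, 6 rose in root and 12 fell in shoot (12.7% and 13.0% of all genes did). A positive difference was called for 8 and a negative one for 1 (median 1.02), against 8.74% and 7.1% of all genes. NCED3 (AT3G14440), the rate-limiting enzyme of ABA synthesis, stood at 1.51, 1.45, 5.16 and 1.14 CPM in bz1728 root, 2.39, 8.86, 5.41 and 2.91 in nobiro6 root, 13.7, 19.4, 18.7 and 13 in bz1728 shoot and 3.68, 2.5, 3.02 and 0.81 in nobiro6 shoot. It fell by 2.65 ± 0.44 in shoot with no overlap. In root it rose by 1.19 ± 0.46 with overlapping libraries (adjusted p 0.049), and the difference was 3.84 ± 0.64, adjusted p 5.3e-05. The dehydrin COR47 (AT1G20440) stood at 446, 395, 489 and 482 CPM in bz1728 root, 637, 582, 675 and 605 in nobiro6 root, 219, 166, 259 and 201 in bz1728 shoot and 143, 176, 112 and 145 in nobiro6 shoot. It rose by 0.46 ± 0.12 in root and fell by 0.56 ± 0.13 in shoot (1.02 ± 0.17, adjusted p 6.3e-05), and its relative ERD10 (AT1G20450) did likewise (1.2 ± 0.24, adjusted p 0.00073). RD29A (AT5G52310) rose in root alone, from 17.7 ± 2.73 to 40.4 ± 14.9 CPM (1.61 ± 0.32, adjusted p 0.00069). The phosphatases ABI2 and HAI1, which hold ABA signalling down, had differences of 1.18 and 2.16. ADH1, the negative member (-3.38), stood at 112, 1.94, 4.03 and 5.13 CPM in nobiro6 shoot, high in replicate 1 alone, and its call was lost without that library or any of 6 others in turn.

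**Figure D4:**
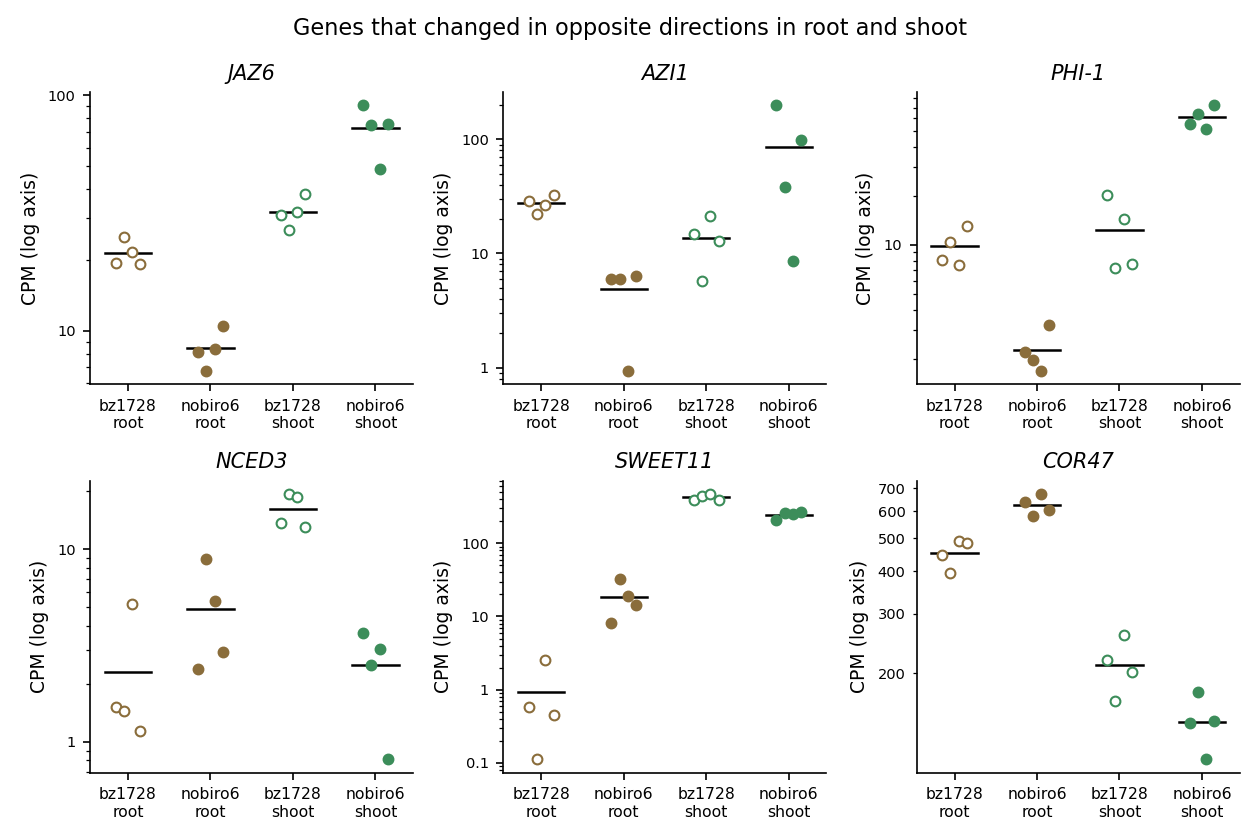
CPM in each library (log axis) of 6 genes that changed in opposite directions, with bz1728 as open and nobiro6 as filled circles, root in brown, shoot in green and a bar at the mean of 4 libraries. JAZ6, AZI1 and PHI-1 are lower in nobiro6 root and higher in nobiro6 shoot, and NCED3, SWEET11 and COR47 are higher in root and lower in shoot.

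Auxin genes went both ways, with 6 negative and 4 positive differences among 18 tested (median -0.21), against 7.1% and 8.74% of all genes. IAA1 (AT4G14560), an Aux/IAA repressor induced by auxin, stood at 10.9, 17.9, 14.1 and 15.8 CPM in bz1728 root, 7.98, 11.6, 11.6 and 9.02 in nobiro6 root, 7.34, 5.94, 7.86 and 10.1 in bz1728 shoot and 21.5, 25.5, 20.9 and 24.3 in nobiro6 shoot. The shoot libraries did not overlap and the root libraries did, and it fell by 0.52 ± 0.18 in root and rose by 1.55 ± 0.19 in shoot (-2.07 ± 0.26, adjusted p 2.3e-07). GH3.3 (AT2G23170), which conjugates auxin to amino acids, fell in root from 15.5 ± 3.96 to 0.952 ± 0.942 CPM and was not called in shoot (-4.43 ± 0.62, adjusted p 4.8e-06). The efflux carrier PIN3 (AT1G70940) fell in root alone (-0.85 ± 0.16, adjusted p 0.00028), and IAA13 (AT2G33310) fell in root and rose in shoot (-0.76 ± 0.15, adjusted p 0.00029). GH3.5 and IAA14 fell in shoot alone, with positive differences of 1.27 and 1.09.

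Aliphatic glucosinolate genes, which make the methionine-derived mustard oil precursors, fell more often in root than in shoot. Of 15 tested, 11 fell in root and 2 in shoot (15.1% and 13.0% of all genes did), and the median difference was -0.59. A negative difference was called for 7 (7.1% of all genes had one), each through a fall called in root and not in shoot. BCAT4 (AT3G19710), the aminotransferase that opens methionine chain elongation, stood at 305, 231, 228 and 182 CPM in bz1728 root, 134, 83.5, 106 and 144 in nobiro6 root, 173, 232, 162 and 175 in bz1728 shoot and 242, 216, 249 and 280.4 in nobiro6 shoot. It fell by 1.03 ± 0.18 in root, the shoot change was 0.42 ± 0.17 (adjusted p 0.088), and the difference was -1.45 ± 0.25, adjusted p 9.5e-05. The chain elongation genes MAM1 (AT5G23010) and IMD1 (AT5G14200) had differences of -1.15 ± 0.22 and -1.25 ± 0.24, and AT2G31790 one of -0.86 ± 0.18 (adjusted p 0.00044, 0.00045 and 0.00055).

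Of 18 clock genes tested, 10 fell in shoot and 3 in root, against 13.0% and 15.1% of all genes, so that the root count was near the share of all genes. A called positive difference was found for 6, against 8.74% of all genes, and a negative one for none (median 0.42), but the count rests on few libraries and on the scaling. It was 2 without replicate 1 of nobiro6 shoot, 3 without replicate 3 of bz1728 shoot, 2 with only the 16 libraries in the fit, and 3 with DESeq2 or with RLE factors. ELF3 (AT2G25930), of the evening complex, stood at 49.7, 40.8, 48 and 43.9 CPM in bz1728 root, 37.5, 46.3, 44.2 and 43.6 in nobiro6 root, 59.4, 40.8, 49.8 and 28.8 in bz1728 shoot and 19.6, 15, 21.2 and 15.7 in nobiro6 shoot. It fell by 1.3 ± 0.17 in shoot, where every nobiro6 library lay below every bz1728 library, and was not called in root (-0.09 ± 0.14). The difference was 1.22 ± 0.22, adjusted p 0.00015. TOC1 (AT5G61380), an evening repressor, fell by 0.88 ± 0.13 in shoot (0.74 ± 0.18, adjusted p 0.0025). ELF4 (1.31 ± 0.39, adjusted p 0.016) fell in shoot alone, with the other sign in CPM, and GI (0.48 ± 0.16, adjusted p 0.029) in both organs. ELF4 lost its call without bz1728 shoot 3 or nobiro6 shoot 1, and GI without bz1728 root 2, bz1728 shoot 1 or 3, nobiro6 root 2, or nobiro6 shoot 1 or 2 (adjusted p up to 0.104).

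Cell cycle genes, a list that spans DNA replication and division, gave 4 positive differences among 23 tested and no negative one (median 0.27). A positive difference was called for 8.74% of all genes and a negative one for 7.1%. The 4 called genes act in late G2 and division, but the 19 not called include other genes of division, such as AUR1 and HIK. The mitotic kinases CDKB2;1 (AT1G76540) and CDKB2;2 (AT1G20930) fell in shoot alone, from 20.14 ± 3.14 to 12.5 ± 2.23 CPM and from 9.34 ± 1.5 to 5.23 ± 0.55, and stood at 20.9 ± 1.26 and 22.5 ± 3.56, and 11.3 ± 1.3 and 12.3 ± 2.92, in root. Their differences were 0.81 ± 0.23, adjusted p 0.0095, and 0.88 ± 0.26, adjusted p 0.014. The cytokinesis syntaxin KN (AT1G08560) rose by 0.35 ± 0.12 in root and fell by 0.43 ± 0.14 in shoot (0.77 ± 0.18, adjusted p 0.0021). CDC20.1 (AT4G33270), an activator of the anaphase-promoting complex, had a difference of 0.54 ± 0.17, adjusted p 0.029, lost without any of bz1728 root 1, bz1728 shoot 1 or 4, nobiro6 root 4 or nobiro6 shoot 1 (up to 0.0928).

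ER bodies are ER-derived stores of a defence beta-glucosidase. Of 12 genes of this list, 10 fell in root and 6 in shoot (15.1% and 13.0% of all genes did). The median difference was -0.14, and 7 of the 12 had a negative difference, as did 45% of all genes. A positive difference was called for 3 (8.74% of all genes had one), each with the more negative log2 change in shoot, and the other 9 were not called. NAI2 (AT3G15950), needed to form ER bodies, stood at 919, 1100.2, 886 and 1088 CPM in bz1728 root, 674, 904, 653 and 809 in nobiro6 root, 131, 142, 148 and 122 in bz1728 shoot and 51, 57.4, 57.9 and 62.1 in nobiro6 shoot. It fell by 0.39 ± 0.10 in root and 1.26 ± 0.11 in shoot (0.86 ± 0.15, adjusted p 3.8e-05). The lectin JAL34 (AT3G16460) fell by 0.54 ± 0.12 and 1.55 ± 0.15 (1.02 ± 0.19, adjusted p 0.00027). The beta-glucosidase PYK10 (AT3G09260) fell by 1.31 ± 0.19 in shoot and was not called in root (1.06 ± 0.26, adjusted p 0.0046). In mean CPM the drop of all 3 was the larger in root, so the sign was the other way there.

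**Figure D5:**
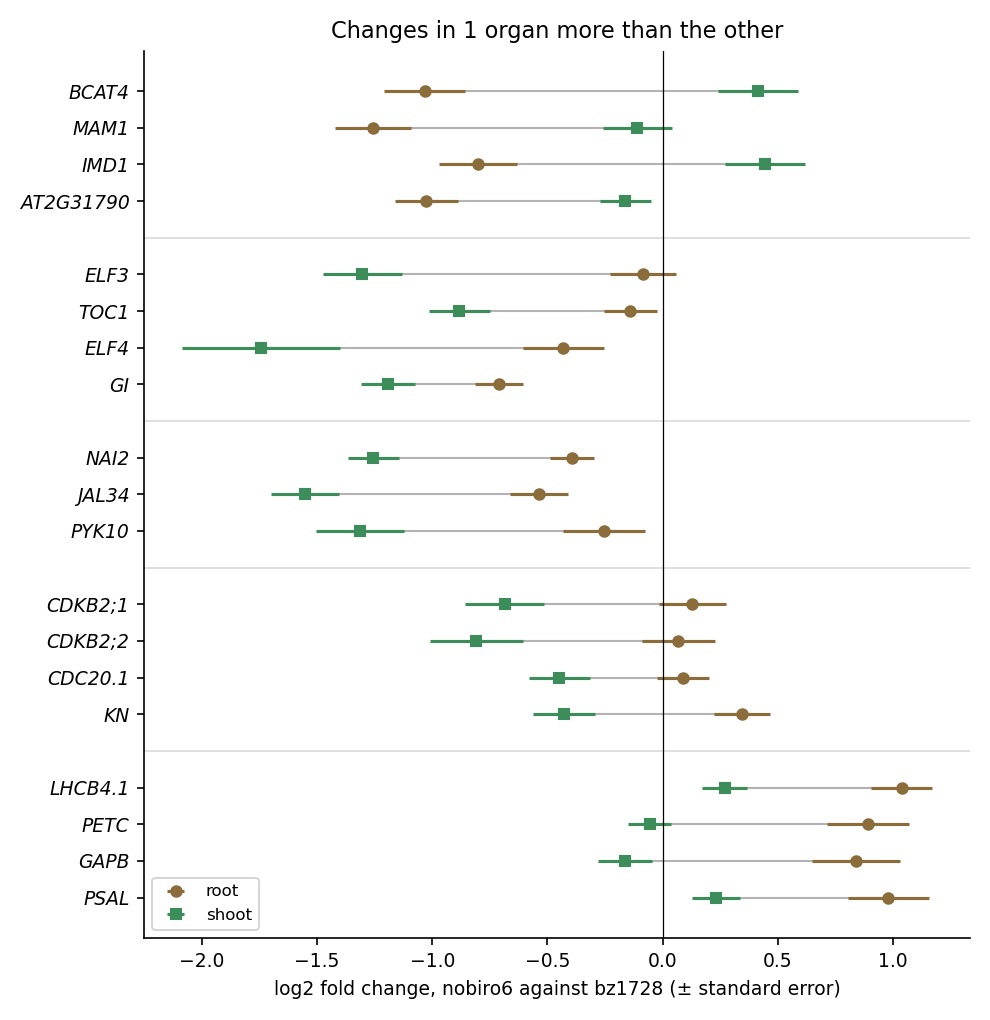
Log2 fold change from bz1728 to nobiro6 in root (brown circles) and shoot (green squares) with its standard error, for 4 glucosinolate, 4 clock, 3 ER body, 4 cell cycle and 4 photosynthesis genes from top to bottom. The glucosinolate genes are displaced to the left in root, the clock, ER body and cell cycle genes to the left in shoot, and the photosynthesis genes to the right in root.

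Photosynthesis genes with a called difference all had the more positive log2 change in root. Of 28 tested, 19 rose in root and 11 in shoot (12.7% and 8.39% of all genes did). A positive difference was called for 8 and a negative one for none (median 0.49), against 8.74% and 7.1% of all genes. The count of positive differences was 5 without replicate 2 of bz1728 root and 4 with only the 16 libraries in the fit. LHCB4.1 (AT5G01530), of the light-harvesting antenna, stood at 15.6, 9.12, 17.9 and 17.8 CPM in bz1728 root and 32.3, 31.2, 29.1 and 27.4 in nobiro6 root, and at 1626 ± 188 and 1959 ± 144 CPM in shoot. It rose by 1.04 ± 0.13 in root and by 0.27 ± 0.10 in shoot (0.77 ± 0.16, adjusted p 0.00075). PETC (AT4G03280), the Rieske protein of the cytochrome complex, the Calvin cycle enzyme GAPB (AT1G42970) and the photosystem I subunit PSAL (AT4G12800) rose in root alone. Their differences were 0.95 ± 0.20, 1.0 ± 0.22 and 0.75 ± 0.20 (adjusted p 0.00076, 0.0015 and 0.0085). In CPM, LHCB4.1 and PSAL gained more in shoot.

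The root level of these genes was a small part of the shoot level. Summed over the 28 genes, root libraries held 316 to 591 CPM in bz1728 and 671 to 828 in nobiro6, and shoot libraries 99293 to 123099 and 108897 to 125513. Of the shoot markers, PDF1 (AT2G42840), a gene of the shoot epidermis, was at 13.1, 5.78, 15.8 and 8.23 CPM in bz1728 root, 52.5, 42.8, 68.1 and 59.9 in nobiro6 root, 246, 274, 243 and 265 in bz1728 shoot and 218, 218, 228 and 189 in nobiro6 shoot. It rose by 2.38 ± 0.21 in root and was not called in shoot (2.65 ± 0.27, adjusted p 2e-08), with wt root at 37.7 ± 7.2 CPM. TCP4 (AT3G15030), a leaf development factor, had a difference of 0.63 ± 0.20, adjusted p 0.026, lost without bz1728 root 2, bz1728 shoot 2, or nobiro6 root 1 or 2 (up to 0.101). The other shoot markers were not called, 3 of the 8 were at 0 counts in all bz1728 root libraries and 5 in all nobiro6 root libraries. Whether shoot tissue in the root samples has a part in these differences was not tested.

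Greening genes gave 3 positive and 2 negative differences among 11 tested, against 8.74% and 7.1% of all genes. GLK2 (AT5G44190), a factor that drives chloroplast development, fell by 0.72 ± 0.20 in root and rose by 0.59 ± 0.10 in shoot (-1.31 ± 0.22, adjusted p 4.3e-05). HY5 (AT5G11260), a light-response factor, fell in shoot alone, from 91.7 ± 13.1 to 51.3 ± 12.7 CPM (0.86 ± 0.21, adjusted p 0.0036). PORB (AT4G27440), of chlorophyll synthesis, stood at 364, 304, 401 and 308 CPM in bz1728 shoot and 109, 122, 130.0 and 127 in nobiro6 shoot, and at most 2.8 CPM in root (2.55 ± 0.72, adjusted p 0.014). HEMA1 (AT1G58290), at the entry of the pathway, rose in shoot alone and had a difference of -0.39 ± 0.14, adjusted p 0.042, lost without any of 8 libraries (bz1728 root 1 and 4, bz1728 shoot 1 and 2, nobiro6 root 1, 3 and 4, nobiro6 shoot 1).

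Of 22 iron deficiency genes tested, 16 fell in root and 12 in shoot (15.1% and 13.0% of all genes did), with median changes of -2.25 and -0.78. A negative difference was called for 4 and a positive one for 1, against 7.1% and 8.74% of all genes. OPT3 (AT4G16370), a phloem iron transporter, stood at 81.5, 72.9, 68.5 and 70.2 CPM in bz1728 root, 11.6, 13.2, 11.9 and 14 in nobiro6 root, 450.1, 421, 367 and 496 in bz1728 shoot and 194, 250.01, 312 and 357 in nobiro6 shoot. It fell without overlap in both organs, by 2.54 ± 0.18 and 0.64 ± 0.14 (-1.9 ± 0.23, adjusted p 4.4e-07), and in CPM the loss was larger in shoot. The nicotianamine synthase NAS4 (AT1G56430) fell by 3.02 ± 0.54 and 0.99 ± 0.23 (-2.04 ± 0.63, adjusted p 0.023), a call lost without nobiro6 root 2 or 3 and, like OPT3, of the other sign in CPM. The positive call of this list was lost without any of 9 libraries in turn. F6'H1 (AT3G13610), of coumarin synthesis, fell from 76.7 ± 6.7 to 26.4 ± 3.07 CPM in root. It held 0 counts in bz1728 shoot and 2.87, 0, 0.504 and 0.27 CPM in nobiro6 shoot, at least 5.84-fold higher against 3 counts over the group, and the called difference (adjusted p 0.0075) was lost without nobiro6 shoot 1 (0.2). NAS1 (AT5G04950) had a difference of -0.85 ± 0.26, adjusted p 0.024, lost without bz1728 root 3, bz1728 shoot 1, nobiro6 root 4, or nobiro6 shoot 2 or 4 (up to 0.0731).

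Phosphate starvation gave 3 positive and 1 negative difference among 22 tested, against 8.74% and 7.1% of all genes. PHO1 (AT3G23430), which loads phosphate into the xylem, stood at 201, 142, 170.1 and 133 CPM in bz1728 root, 188, 172, 144 and 141 in nobiro6 root, 18.7, 27.9, 20.4 and 22.4 in bz1728 shoot and 10.2, 7.77, 10.1 and 7.83 in nobiro6 shoot. The root libraries overlapped, and in shoot it fell without overlap by 1.3 ± 0.26 (1.3 ± 0.31, adjusted p 0.003). The acid phosphatase PAP17 (AT3G17790) fell in shoot alone (1.08 ± 0.33, adjusted p 0.023) and the importer PHT1;4 (AT2G38940) in root alone (-1.3 ± 0.37, adjusted p 0.015). PHT1;1 (AT5G43350) rose in root alone (1.24 ± 0.44, adjusted p 0.047). The count of positive differences was 1 without bz1728 root 2 or bz1728 shoot 3 and 5 without bz1728 shoot 4. PAP17 lost its call without bz1728 root 2, bz1728 shoot 3 or nobiro6 root 2, PHT1;4 without nobiro6 shoot 4, and PHT1;1 under 11 of the 16 left-out libraries and 9 of 11 other settings.

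Of 15 sulfur deficiency genes, 11 fell in root and 8 in shoot (15.1% and 13.0% of all genes did), with median changes of -1.67 and -0.67, and none had a called difference by edgeR or DESeq2, with 2 past an unadjusted p of 0.05 and 1 called by limma-voom. In nitrogen use, nitrate reductase NIA2 (AT1G37130) fell in root alone, from 675, 622, 635 and 699 to 410.0, 337, 353 and 286 CPM, with 1822 ± 155 and 2118 ± 269 in shoot (-1.14 ± 0.16, adjusted p 1.8e-06). The plastid glutamine synthetase GS2 (AT5G35630) rose in root alone (0.64 ± 0.10, adjusted p 2.1e-05). GLU1 (AT5G04140), a glutamate synthase, and the ammonium transporter AMT2 (AT2G38290) fell in root alone, with differences of -0.91 ± 0.28 and -0.65 ± 0.22. The GLU1 difference had the other sign in CPM. GLU1 lost its call without bz1728 root 3 or nobiro6 root 3 or 4 (up to 0.115), and AMT2 without bz1728 root 1 or 4, bz1728 shoot 4, nobiro6 root 2 or 4, or nobiro6 shoot 1 or 2 (up to 0.169). Of 17 nitrogen genes, 3 were negative and 1 positive, against 7.1% and 8.74% of all genes, and 1 was negative without nobiro6 root 4.

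Of 20 root hair genes, 2 had a positive and 1 a negative difference, shares near the 8.74% and 7.1% of all genes, and all 3 had opposite changes. GL2 (AT1G79840), which sets hairless root cells and leaf hairs, stood at 9.29, 9.45, 8.61 and 10.7 CPM in bz1728 root, 17, 12.6, 16.8 and 12.5 in nobiro6 root, 19.7, 22, 19.2 and 19.9 in bz1728 shoot and 13.5, 14.2, 15.1 and 9.18 in nobiro6 shoot. The lines did not overlap in either organ, and it rose by 0.64 ± 0.14 in root and fell by 0.63 ± 0.14 in shoot (1.27 ± 0.19, adjusted p 6.3e-06). WER (AT5G14750), upstream of GL2 in root, rose from 9.11 ± 2.28 to 18 ± 2.37 CPM in root. In shoot it held at most 1.05 CPM in bz1728 and 0 counts in nobiro6, at least 3.23-fold lower. CSLD3 (AT3G03050), for root hair wall synthesis, fell by 0.39 ± 0.10 in root and rose by 0.33 ± 0.12 in shoot. The shoot rise had an adjusted p of 0.046 with overlapping libraries, and the difference was -0.72 ± 0.16, adjusted p 0.001. The other 17 of 20 root hair genes were not called.

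The endodermis and suberin list had 1 call each way among 23, below the 8.74% and 7.1% of all genes, and these were the alcohol-forming reductase FAR1 (1.04 ± 0.25, adjusted p 0.0032), which fell in shoot, and the receptor kinase GSO1 (-1.32 ± 0.37, adjusted p 0.01), which fell in root. Among 15 flavonoid genes, chalcone isomerase CHI rose by 0.39 ± 0.14 in root and fell by 0.52 ± 0.14 in shoot (0.90 ± 0.20, adjusted p 0.0014), flavonol synthase FLS1 rose in shoot alone (-0.74 ± 0.22, adjusted p 0.016), and the regulator TTG1 had -0.45 ± 0.16, adjusted p 0.047, lost without 12 of the 16 libraries in turn. Of 13 aquaporin genes, PIP1;1 (-0.51) and PIP2;3 (-0.52) were negative (7.1% of all genes were), and TIP1;1 (0.49) and PIP1;5 (0.42) positive (8.74% of all genes). PIP2;3 and PIP1;5 each lost their calls without 7 of the 16 libraries in turn, and these genes have near-identical copies. Among 13 heat shock genes, HSP23.6-MITO, a mitochondrial small chaperone that rose in shoot alone, was called (-2.75 ± 0.91, adjusted p 0.033), a call also lost without 7 of the 16. Of the flavonoid list 20% were called and of the heat shock list 7.69%, against 15.8% of all genes.

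Several of the remaining large positive differences came from falls in shoot. TLL1 (AT1G45201), a triacylglycerol lipase-like gene, stood at 63.1, 48.9, 81.1 and 83.2 CPM in bz1728 root, 88.7, 76.8, 72.7 and 59.1 in nobiro6 root, 442, 374, 439 and 389.7 in bz1728 shoot and 52.2, 71.3, 67.5 and 85.3 in nobiro6 shoot. It fell by 2.58 ± 0.15 in shoot, far from any overlap, and was not called in root (2.71 ± 0.21, adjusted p 7.7e-11). BAT1 (AT4G31910), an acyltransferase that acts on brassinosteroids, went from 11.8 ± 2.82 to 0.566 ± 0.566 CPM in shoot and stood at 66.9 ± 13.3 and 53.9 ± 9.33 in root (4.07 ± 0.53, adjusted p 1.2e-06). The U-box ligase PUB19 (AT1G60190), ZW9 (AT1G58270) and the lipid transfer protein LTP2 (AT2G38530) also fell in shoot alone, with differences of 3.85 ± 0.59, 2.72 ± 0.43 and 2.67 ± 0.42 (adjusted p 2.3e-05, 3.7e-05 and 2.8e-05). BAT1 and ZW9 had the other sign in CPM.

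Others rose in root and fell in shoot. GRP5 (AT3G20470), a glycine-rich protein gene, stood at 38.9, 28.1, 64.2 and 39.3 CPM in bz1728 root, 71, 74.5, 136 and 119 in nobiro6 root, 61.7, 63.8, 82.8 and 54.4 in bz1728 shoot and 10.6, 15, 8.57 and 10.8 in nobiro6 shoot. Neither organ showed overlap, with a rise of 1.24 ± 0.22 in root, a fall of 2.57 ± 0.29 in shoot and a difference of 3.8 ± 0.37, adjusted p 1.5e-08. The carboxypeptidase-like scpl31 (AT1G11080) rose from 3.3 ± 1.86 to 19.3 ± 2.42 CPM in root and fell from 5 ± 1.53 to 1.99 ± 0.7 in shoot (3.81 ± 0.54, adjusted p 4.5e-06). CCL (AT3G26740) rose by 3.39 ± 0.80 and fell by 1.22 ± 0.29 (4.6 ± 0.84, adjusted p 0.00022), and the cytochrome P450 gene CYP96A4 (AT5G52320) by 0.81 ± 0.24 and 0.82 ± 0.21 (1.63 ± 0.32, adjusted p 0.00029). UMAMIT17 (AT4G08300), of an amino acid exporter family, rose in root alone, from 0.558 ± 0.68 to 5.03 ± 1.8 CPM (4.24 ± 0.64, adjusted p 1.1e-05).

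The T-DNA line nbr6-t1 against wt gave the same kind of difference in libraries shared with none of the above. It was called for 481 genes, 2.4% of those tested, 355 positive and 126 negative. Of these, 246 were also called for nobiro6 against bz1728, which is 51.1% of the 481 and 7.76% of the 3170. Among all genes tested, 15.8% were called for nobiro6 and 2.4% for nbr6-t1. The direction was the same for 237 of the 246 and opposite for 9. The differences themselves were unequal for 593 genes (2.96%), with the nobiro6 one the more positive for 243 (1.21%) and the more negative for 350 (1.75%), and 533 of the 593 were among the 3170.

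Named genes lay on both sides of that test. TLL1 had a difference of 1.39 in nbr6-t1 against wt (adjusted p 0.00011), GRP5 2.32 (0.00042), ZW9 3.6 (3.1e-06), LTP2 2.69 (9e-05), NAI2 0.68 (0.0042) and RD29A 1.51 (0.0095), each of the same sign as for nobiro6. FLS1 had -1.29 (0.00049), also of the same sign. Of 28 photosynthesis genes, 10 were called in nbr6-t1 against wt, and none was unequal between the lines. TLL1 was unequal between the lines, the nobiro6 difference being the larger (adjusted p 0.009).

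In nbr6-t1 against wt, the lowest adjusted p among the 12 stress-type UPR genes was 0.194 (NAC089) and among the 24 folding genes 0.0859 (CRT3). The median differences of these lists were 0.19 and -0.01. Of the stress-type genes BZIP60 was unequal between the lines (-0.85 ± 0.19, adjusted p 0.0072), and of the folding genes ERO1 (0.0064), PDIL2-3 (0.0038), BIP2 (0.002) and PDIL1-2 (0.046). The wt level of SEC31A was 0.225 ± 0.221 CPM (root) and 1.98 ± 1 CPM (shoot). In wt root BIP3 stood at 0, NAC103 at 0.419 ± 0.375 and SARA1A at 0.543 ± 0.202 CPM. For these genes and SEC31A a fall in nbr6-t1 root could hardly be seen, so the lack of a call cannot decide whether one took place. BZIP60 (31.3 CPM) and NAC062 (32.8 CPM) stood well above the floor in wt root. TAF12B itself differed more between the organs of nbr6-t1 (1.99 ± 0.14) than of nobiro6, and the lines were unequal (-1.44 ± 0.21, adjusted p 3.4e-05).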

How the data were processed

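The authors sequenced mRNA libraries from roots and shoots. Per the submitters' processing notes, Trimmomatic 0.39 and kallisto 0.44.0 were used; the genome build is not given in the sources used here. The deposited tables hold an estimated count (expected count) and a TPM for each of 27655 transcripts, and TPM were not used in tests. Between 97.7% and 98.5% of the deposited estimated counts in a library were whole within 1e-06, and all were rounded. The difference was tested in edgeR 4.0.16 (R 4.3.3, robust quasi-likelihood test, TMM factors over 40 libraries, filterByExpr with a minimum count of 10) with a mean for each of 10 groups, because the 16 libraries then share the spread estimate of all. The threshold was a Benjamini-Hochberg adjusted p of 0.05 over the genes tested, and standard errors were the log2 value over the root of F. Alternatives used DESeq2 1.42.0, limma 3.58.1, other scalings, filters and blocks, and each library left out. Scripts were tested on simulated data.

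Genes, 28 lists (25 functional, 493 entries, 475 paired with a transcript by symbol) and tests were chosen with earlier results of these data known. Named genes were the mutated loci and stress-type UPR genes, up to 4 called members of each other list by smallest adjusted p, the 12 largest differences each way and 6 with opposite changes each way, with a symbol and a mean of at least 5 CPM in a group of each organ for the last 2 kinds. Other called members of lists are named with their difference. A fold against a group at 0 used a floor of 3 counts. Promoters came from RefSeq (TAIR10.1), in whose annotation 27443 deposited lengths equalled a transcript of the locus. Floors and counts cover counting error only. Some items are not reported here.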

Additional observations from a re-analysis of the deposited data

Results flagged for a closer look

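In some groups of 4, the highest or lowest library stood far from the other 3, which chance gives for about 1 group in 20. In nobiro6 shoot, such a library was the highest for BIP2 (154 CPM), PAD3 (31.1), GRX480 (4.5), STP13 (21.3), GSTU4 (25.6), AT3G10815 (4.5), BGAL9 (2.02) and IAA13 (33.5), and the lowest for CDKB2;1 (9.16). Replicate 1 was the library for BIP2, PAD3, GRX480, STP13, GSTU4 and AT3G10815. In bz1728 root such libraries stood at 409 CPM for BAG7, 110 for HRD3A, 74.6 for GSO1, 5.16 for NCED3, 173 for MAM1, 110 for GI and 5.51 for PUB19. In nobiro6 root they stood at 7.27 CPM for BZIP28, 4130 for PYK10 and 0.932 for AZI1, and in bz1728 shoot at 1910 for PSAL and 0.175 for AT3G10810.

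The effect differed between root and shoot for 3170 genes in nobiro6 against bz1728 and for 481 in nbr6-t1 against wt, and these differences were unequal for 593 genes. Genes picked for opposite changes were AZI1 (-5.14), EARLI1 (-5.14), PHI-1 (-4.45), GSTU4 (-5.51), ACS7 (-5.0) and DREB26 (-2.74) among those that fell in root and rose in shoot. In the reverse direction they were scpl31 (3.81), GRP5 (3.8), CCL (4.6), SWEET12 (3.09), CYP96A4 (1.63) and SWEET11 (5.29), each value being the root minus shoot difference of log2 changes.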

How the results depend on the processing

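The count of 3170 genes ran from 2636 to 3241 under 11 other settings and from 2582 to 3301 with 1 library left out, replicate 1 or 3 of nobiro6 shoot in turn. Positive differences numbered 1125 with only the 16 libraries in the fit. With a library left out, positive differences ran from 1456 to 1727 and negative ones from 1126 to 1574, changes in root alone from 1058 to 1322, in shoot alone from 757 to 1162, opposite changes from 272 to 406, same-direction changes from 74 to 105 (larger in root) and 64 to 96 (larger in shoot), and changes called in neither organ from 166 to 233. The nbr6-t1 count ran from 329 to 518 and the count of unequal differences from 428 to 742. Of 105 named genes called, 80 kept the call under every alternative run, and 24 lost it without at least 1 library. By limma-voom EARLI1, TAT3, PAD3, GRX480, CDC20.1, ELF4, AMT2, GLU1, HEMA1, PHT1;1 and TTG1 were not called. With only the 16 libraries in the fit the calls of CDC20.1, ELF4, GI, GLU1, NAS1, PAD3, PAP17, PHT1;1, PHT1;4, PIP1;5 and TCP4 were lost. DESeq2 and RLE factors each lost those of GI and PIP1;5, and RLE factors also that of PHT1;1. Same-numbered libraries did not deviate together (r from -0.331 to 0.0933 over 24 pairs, the same number being highest in 6). Organs of the same plants need not deviate together, so this cannot decide whether the numbers pair the samples, and the labels do not say. With the replicate number as a block, 3124 genes were called, and with root and shoot of a line paired by number, 2819, where the patterns could not be fitted. In that paired fit F6'H1, GLU1, GRX480, NAS1, PAD3 and PHT1;1 lost their calls. Totals of 2.66 to 7.27 M counts limit genes near 1 CPM.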
